A study of Homo sapiens with 8 samples.

Results

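Processed pseudogenes of translation genes are intronless copies of the mRNAs of ribosomal proteins and of the elongation factor eEF1A1. Rows were taken from the deposited gene tables where the symbol had the form of a ribosomal protein pseudogene (RPL or RPS, the parent's number, P and a number) or of an EEF1A1 pseudogene. They were kept where the read counts summed over all 8 libraries reached at least 40. Of 55075 rows, 520 matched by name, 314 of these had at least 1 read, and 92 reached the minimum: 17 copies of EEF1A1, 28 copies of small-subunit genes and 47 copies of large-subunit genes, from 41 parent genes. The members were thus chosen by their summed counts, so their abundance is given as a description. The cells were HCT116, an established human colon cancer line, as wild type (WT) or with FBXW7 knocked out (KO). The FBXW7 protein recognises the substrates of a ubiquitin ligase of the SCF type. RNA was sequenced from 4 groups of 2 libraries each. These were KO cells after recovery, KO cells at heat shock, WT cells after recovery and WT cells at heat shock. The heat shock was 1 h at 42 °C, and the recovery samples then spent 2 h at 37 °C. Unheated cells were not analysed here.

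A processed pseudogene arises when a cellular mRNA is reverse transcribed by the LINE-1 machinery and the copy is inserted elsewhere in the genome, without introns and usually without a promoter. Ribosomal protein genes and EEF1A1, which are strongly expressed in nearly all cells and in the germ line, have left many such copies in the human genome. A read from such a gene can match the parent mRNA, the copy or both, and a spliced read of the parent can match the unbroken copy without a gap.

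The stretches below are shown because they decide whether a short read can be told apart between a copy and its parent. Each is an 80-base window of the mature transcript, 5′ to 3′, in which the parent joins 2 exons after base 40 and the copy runs on without a break. Capitals mark the bases at which copy and parent differ, and positions are counted from 1 at the 5′ end of the window, with the parent's base first. Transcripts are those of GENCODE v29 on GRCh38, a later build than the hg19 named in the submitters' processing notes. EEF1A1P5 (chr9:133020067-133020146, plus strand) and EEF1A1 on chromosome 6 (minus strand) had 0 differences in this window, so a read of 50 bases inside it could come from either.
EEF1A1P5: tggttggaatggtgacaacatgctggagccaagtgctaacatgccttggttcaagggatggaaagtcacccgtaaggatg
EEF1A1: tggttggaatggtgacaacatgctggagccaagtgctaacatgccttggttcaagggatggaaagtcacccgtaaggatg

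RPL9P9 (chr15:82372591-82372670, minus strand) and RPL9 on chromosome 4 (minus strand) also had 0 differences. This copy had its highest level in KO heat shock.
RPL9P9: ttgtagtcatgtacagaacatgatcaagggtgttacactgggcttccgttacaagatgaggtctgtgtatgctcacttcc
RPL9: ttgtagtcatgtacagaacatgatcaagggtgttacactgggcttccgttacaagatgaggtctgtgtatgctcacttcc

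RPL13P12 (chr17:17383496-17383575, minus strand), the member with the most reads, carried G32A, C40T and C67G against RPL13 on chromosome 16 (plus strand). Along its full length, however, 47.4% of its windows as long as a read also occurred in RPL13. Reads from those parts could come from either gene.
RPL13P12: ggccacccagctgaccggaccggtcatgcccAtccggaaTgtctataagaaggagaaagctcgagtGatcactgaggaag
RPL13: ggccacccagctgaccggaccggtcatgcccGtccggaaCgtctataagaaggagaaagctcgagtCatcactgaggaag

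RPS19P3 (chr14:34568915-34568994, minus strand) carried C27G, C52T and C67T against RPS19 on chromosome 19 (plus strand). It shared no 50-base window with its parent anywhere along its length, but it lies within SNX6 on the same strand, so its reads may not have been told apart from those of that gene.
RPS19P3: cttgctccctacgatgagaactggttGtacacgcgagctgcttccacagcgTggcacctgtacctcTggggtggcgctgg
RPS19: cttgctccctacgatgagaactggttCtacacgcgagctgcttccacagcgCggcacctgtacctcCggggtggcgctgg

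The label was checked against GENCODE v29, in which 91 of the 92 members were found by gene identifier. It classes 78 as processed pseudogenes, 12 as transcribed processed pseudogenes and 1, RPL32P3, as a transcribed unprocessed pseudogene, which goes against the label and was singled out after its class was seen. RPS7P1 was not in that annotation. Identity to the parent transcript ran from 81.7% to 99.8%, with a median of 95.5%, over lengths of 151 to 1414 bases. Of the 50-base windows of a member, a median of 7.83% also occurred in the parent, with a range from 0% to 90.6%. EEF1A1P5 shared 85.1% of its windows with EEF1A1, and RPL9P9 shared 90.6% with RPL9. In 64 members at least 1 window ran across an exon junction of the parent.

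Total counts ran from 15507896 to 34387618 per library, the WT recovery libraries being the smallest. FBXW7 itself had 13.7 to 17.3 counts per 1000000 (CPM) in the KO libraries and 21.8 to 33.6 CPM in the WT libraries, and counts summed over the gene do not show which part of it was deleted. The epithelial markers EPCAM (227 to 365 CPM of unscaled totals), KRT8, KRT18, KRT19, CDH1 and CDX2 (8.37 to 12.9 CPM) were detected in every library. Among the listed markers of other cells, DCN, COL1A2, PTPRC and HBB held 1, 2, 6 and 21 reads over all libraries. Others of that list were not absent: CD68 held 3624 reads (16.3 to 28.8 CPM of unscaled totals), COL1A1 1430 (6.40 to 9.97 CPM) and VIM 355. No column name says which counts are of the recovery library. That was read from the order in which each comparison names its samples and from the sign of the log2 fold change in the authors' deposited tables, and with the opposite order all recovery changes would turn round. The sources used here do not give whether replicates were separate cultures or KO clones, and p-values therefore cover the spread between these libraries alone. The cells were measured in bulk, so fewer cells and less RNA per cell cannot be told apart.

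The pseudogenes held 233452 counts in all, and most of these lay in a few members. RPL13P12 (79308 counts), RPS26P3 (40108), RPL10AP6 (30890) and RPL18AP3 (26003) held 75.5% of them. Just inside the minimum were RPL19P12 with 40 counts and RPL10AP2 and RPL13AP7 with 41 each, and just outside it were RPS20P22 and RPS7P3 with 39 and RPL18AP7 with 36.

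As a share of all counts, the 92 pseudogenes took 0.144% and 0.147% in KO recovery, 0.0778% and 0.04996% in KO heat shock, 0.237% and 0.202% in WT recovery, and 0.0918% and 0.169% in WT heat shock. Both recovery groups lay above the heat shock group of their own line, without overlap. With 2 libraries against 2, an exact permutation test (two-sided) cannot give a p below 0.3333. The 4 most abundant members took 0.122% and 0.125% in KO recovery, 0.0564% and 0.0299% in KO heat shock, 0.156% and 0.128% in WT recovery, and 0.0713% and 0.144% in WT heat shock, so their WT groups overlapped. The other 88 members took 0.0218% and 0.0217% in KO recovery, 0.0214% and 0.0201% in KO heat shock, 0.0812% and 0.0744% in WT recovery, and 0.0206% and 0.0250% in WT heat shock. For these 88 only WT recovery stood apart, and the other 6 libraries lay close together. The 17 EEF1A1 copies together held 200 and 211 counts in KO recovery, 453 and 839 in KO heat shock, 2699 and 2722 in WT recovery, and 276 and 220 in WT heat shock. The 428 rows that matched by name but fell under the minimum held 142 and 141 counts in KO recovery, 191 and 253 in KO heat shock, 451 and 480 in WT recovery, and 105 and 124 in WT heat shock, so they too were highest in WT recovery.

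**Figure D1:**
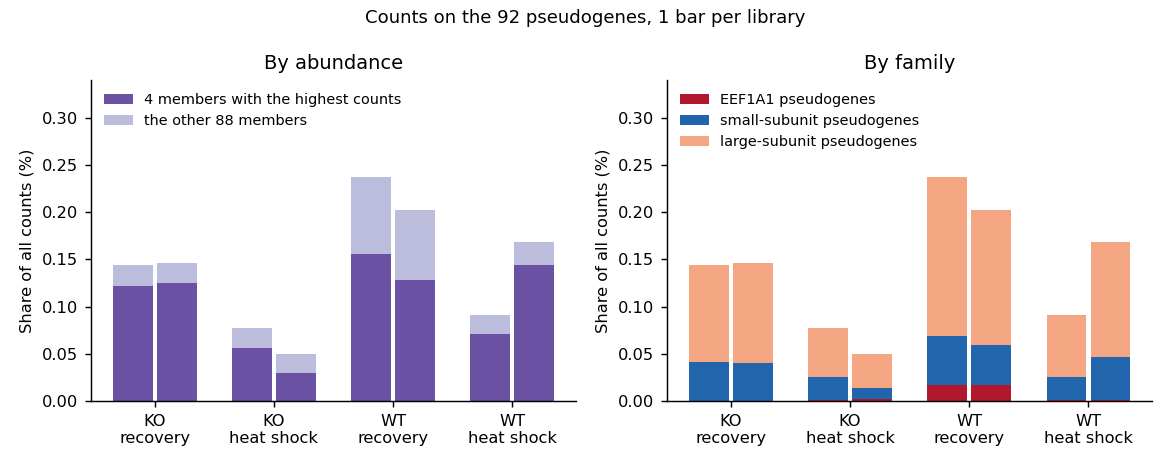
Share of all counts (%, from 0) taken by the 92 pseudogenes in each of the 8 libraries, stacked by abundance (left) and by parent family (right). The share was 0.237% and 0.202% in WT recovery, and the part outside the 4 most abundant members stood at 0.0812% and 0.0744% there against 0.0250% or less in the 6 other libraries.

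Levels per length set the copies against their parents. RPS26P3 lay above its parent gene in mean CPM per kilobase, with 650 against 25.9 for RPS26. RPL13P12 reached 751 CPM per kilobase, against 1208 for RPL13. Of the 91 members with a known length, 65 were under 1% of the parent's level, and the median was 0.309%. RPS26 helps form the channel through which mRNA leaves the small subunit, and RPL13 is a protein of the large subunit. RPS26P3 shared 53.8% of its windows with the parent, and the sources used here do not give how the authors' counting assigned reads that match both.

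In recovery of WT cells most of the pseudogenes rose. Of the 92 members 66 were higher and 5 lower in WT recovery than in WT heat shock (quasi-likelihood test of edgeR, p adjusted by Benjamini and Hochberg's method over 17776 genes, threshold 0.05), against 23.3% of all tested genes higher and 25.0% lower. The members' median log2 change was 2.50, against 0.00 over all genes tested. A copy with few reads elsewhere could reach the minimum through WT recovery alone. Of the 33 members with under 40 counts outside WT recovery, 28 were higher and 0 lower, and the minimum itself favours that. Of the other 59, which reached 40 counts without these libraries, 38 were higher and 5 lower, with a median of 1.89.

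The EEF1A1 copies, whose parent encodes the factor that brings aminoacyl-tRNA to the ribosome, rose in 16 of 17 cases in WT recovery, with 0 falling and a median of 3.30. Over all tested genes 23.3% were higher and 25.0% lower. Some copies in this tally and in the subunit tallies below reached the minimum only with WT recovery, which favours a rise there. EEF1A1P9 (ENSG00000249264; chr4:105484698-105486080, GRCh38, plus strand) had 1.16 and 1.33 CPM in KO recovery, 1.08 and 1.70 in KO heat shock, 55.3 and 53.9 in WT recovery, and 2.46 and 2.26 in WT heat shock. Only the WT recovery libraries were high, at 905 counts each. Its log2 change was 4.53 ± 0.15 (SE) in WT recovery (adjusted p = 5.9e-13) and -0.18 ± 0.24 in KO recovery (adjusted p = 0.59). EEF1A1P9 differed from EEF1A1 along its length, with 97.2% identity, and shared 17.5% of its windows with it.

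EEF1A1P5 and EEF1A1P6 showed the same high WT recovery at closer identity to EEF1A1. EEF1A1P5 had 0.667 and 0.721 CPM in KO recovery, 1.04 and 1.56 in KO heat shock, 23.5 and 21.3 in WT recovery, and 1.13 and 0.462 in WT heat shock. Its WT change was 4.82 ± 0.24 (adjusted p = 5.7e-11), and its identity to EEF1A1 was 99.7%. EEF1A1P6 had 0.934 and 0.494 CPM in KO recovery, 2.72 and 3.26 in KO heat shock, 23.1 and 24.6 in WT recovery, and 1.13 and 0.872 in WT heat shock. Here the KO heat shock libraries also lay above the KO recovery libraries. EEF1A1P12 had 1.42 and 1.33 CPM in KO recovery, 1.12 and 1.67 in KO heat shock, 18.2 and 18.8 in WT recovery, and 1.74 and 2.00 in WT heat shock, a WT change of 3.30 ± 0.20. EEF1A1P24 was the copy that did not pass (1.08 ± 0.49, adjusted p = 0.079). EEF1A1 itself rose in WT recovery by 1.51 (adjusted p = 7.1e-08), with 4296 and 3941 CPM in WT recovery against 1195 and 1736 CPM in WT heat shock.

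Of the 28 small-subunit copies 23 were higher and 2 lower in WT recovery, with a median of 2.599, against 23.3% of all tested genes higher and 25.0% lower. RPS19P3, a copy of the gene mutated in many cases of Diamond-Blackfan anaemia, had 19.5 and 17.0 CPM in KO recovery, 11.5 and 8.19 in KO heat shock, 103 and 80.1 in WT recovery, and 10.7 and 19.3 in WT heat shock. Its 2 highest values were those of WT recovery, a change of 2.62 ± 0.18 (adjusted p = 3.7e-09), in a copy without a window shared with the parent. RPS23P8, whose parent encodes a protein of the decoding centre, had 0.978 and 0.418 CPM in KO recovery, 0.485 and 0.425 in KO heat shock, 22.7 and 21.4 in WT recovery, and 1.13 and 0.821 in WT heat shock (4.50 ± 0.22 in WT recovery). RPS2P46 and RPS15AP1 rose by 3.86 ± 0.22 and 3.68 ± 0.23 on the log2 scale. Those lower in WT recovery were RPS26P3, described below, and RPS20P21, which had 4 and 2 counts in WT recovery and 15 and 18 counts in WT heat shock (-2.19 ± 0.62, adjusted p = 0.0070). All windows of RPS20P21 also occur in other genes, among them TMEM70, within which it lies.

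Of the 47 large-subunit copies 27 were higher and 3 lower in WT recovery, with a median of 2.03, against 23.3% of all tested genes higher and 25.0% lower. RPL13AP5, a copy of the gene of a protein that also acts in translational silencing outside the ribosome, had 1.51 and 1.21 CPM in KO recovery, 1.64 and 1.53 in KO heat shock, 29.9 and 26.5 in WT recovery, and 1.90 and 2.36 in WT heat shock. RPL3P4, whose parent encodes a protein close to the peptidyl transferase centre, had 0.578 and 0.456 CPM in KO recovery, 0.783 and 0.737 in KO heat shock, 22.1 and 24.8 in WT recovery, and 1.18 and 0.718 in WT heat shock. Both were high in the WT recovery libraries alone, with changes of 3.72 ± 0.17 (adjusted p = 4.8e-11) and 4.62 ± 0.22 (adjusted p = 5.2e-11). RPL15P3 had 17.0 and 15.9 CPM in KO recovery, 14.9 and 14.5 in KO heat shock, 73.0 and 61.2 in WT recovery, and 11.2 and 17.2 in WT heat shock (2.25 ± 0.15 in WT recovery). The large-subunit copies that fell in WT recovery were RPL26P30 (-0.46 ± 0.12), RPL39P5 (-0.92 ± 0.26) and RPL23AP7 (-1.06 ± 0.27). All 3 are classed as transcribed processed pseudogenes, and their WT recovery libraries lay below all 6 other libraries. With 1 WT pair left out, none of the 5 lower calls held in every case: RPL26P30 gave -0.40 and RPL23AP7 -0.88 without the first pair, and RPL39P5 gave -0.57 and RPS20P21 -1.62 without the second.

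**Figure D2:**
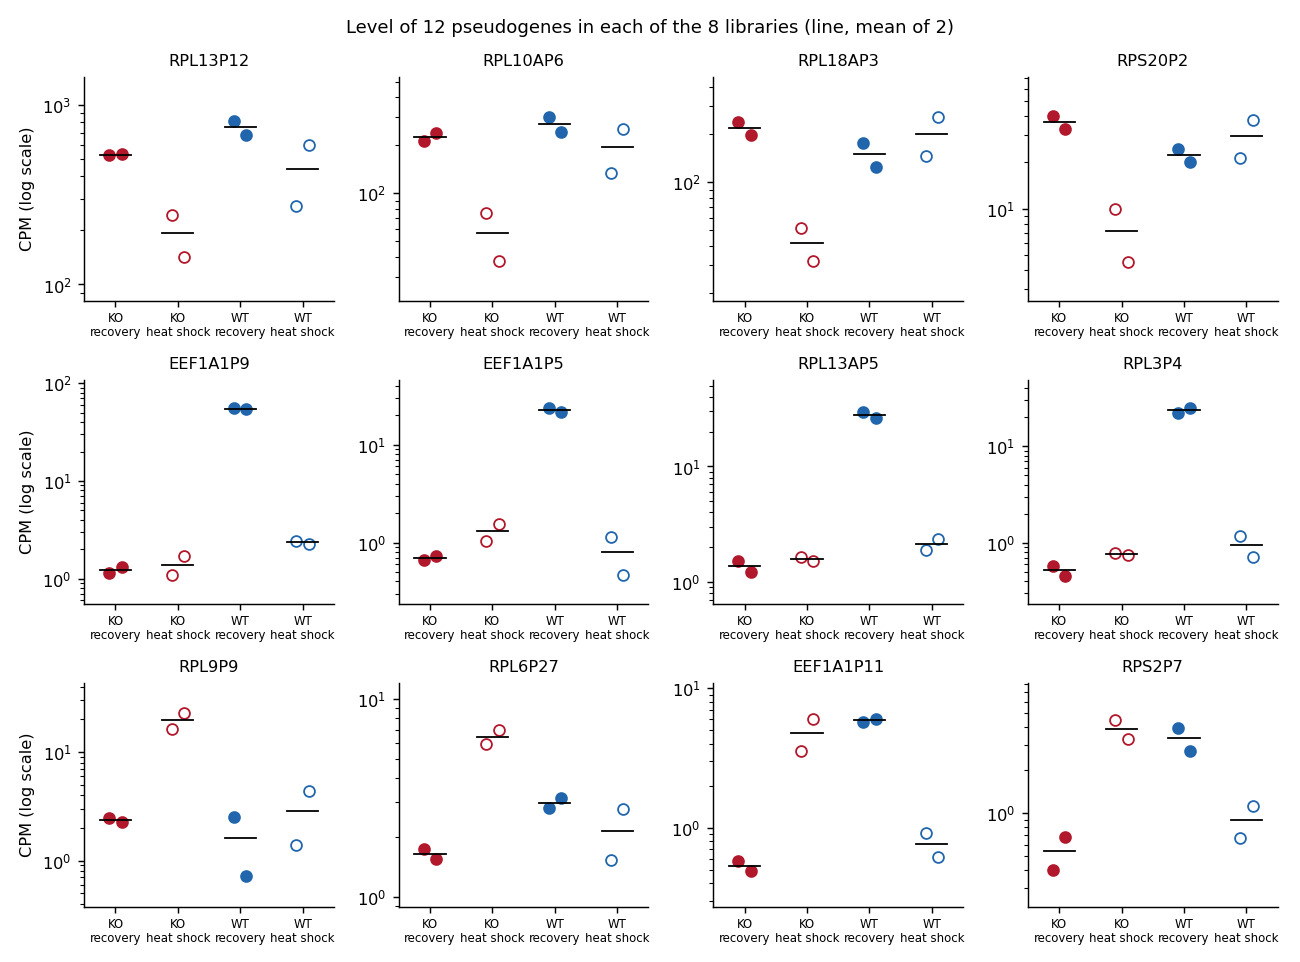
Level of 12 pseudogenes in each of the 8 libraries (CPM, log axis; red for KO, blue for WT, open symbols for heat shock). EEF1A1P9, EEF1A1P5, RPL13AP5 and RPL3P4 stand above 20 CPM in WT recovery and under 3 CPM in the 6 other libraries, while RPL9P9 stands at 16.4 and 22.8 CPM in KO heat shock.

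In recovery of KO cells the pseudogenes divided. Of 92 members 16 were higher and 19 lower in KO recovery than in KO heat shock (edgeR's quasi-likelihood test), against 20.3% of all tested genes higher and 20.8% lower, so the share called was close to that of all genes. The median change was -0.17, against -0.02 over all genes tested. Of the 17 members with at least 1000 counts 11 were higher and 2 lower (median 0.68), and of the 75 with fewer, 5 were higher and 17 lower (median -0.38). A copy could also reach the minimum through KO heat shock, which favours a fall. Of the 12 members with under 40 counts outside KO heat shock 0 were higher and 3 lower, and of the 63 members under 1000 counts that reached 40 without those libraries 5 were higher and 14 lower (median -0.30). Across 91 members the change in KO recovery correlated with transcript length at a Spearman rho of -0.30, given as a description, since copies of 1 parent share length and sequence.

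The most abundant copies rose in KO recovery. RPL18AP3 (ENSG00000213442; chr12:104265309-104265836, GRCh38, plus strand) lies within TXNRD1 on the same strand and had 240 and 199 CPM in KO recovery, 51.4 and 31.9 in KO heat shock, 175 and 125 in WT recovery, and 145 and 258 in WT heat shock. The KO heat shock libraries were the lowest and the WT groups overlapped. It rose by 2.43 ± 0.20 in KO recovery (adjusted p = 2.7e-08), and its WT change of -0.39 ± 0.19 did not pass (adjusted p = 0.10). Its WT value turned on the second pair of libraries: without WT recovery replicate 2 or WT heat shock replicate 2 it was 0.29. RPL10AP6, a copy of the gene of the L1 stalk protein, had 211 and 238 CPM in KO recovery, 75.2 and 37.7 in KO heat shock, 301 and 241 in WT recovery, and 135 and 253 in WT heat shock. It rose by 2.07 ± 0.23 in KO recovery (adjusted p = 1.7e-06), and its WT change was 0.54 ± 0.22 (adjusted p = 0.053). The WT value turned on the pair: it was -0.09 without the first WT pair and 1.17 without the second.

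RPL13P12 had 525 and 533 CPM in KO recovery, 244 and 142 in KO heat shock, 820 and 681 in WT recovery, and 274 and 601 in WT heat shock. Recovery was higher than heat shock in both lines without overlap, by 1.51 ± 0.22 in KO (adjusted p = 2.8e-05) and 0.88 ± 0.22 in WT cells (adjusted p = 0.0028). The WT call rested on the first pair of libraries: without WT recovery replicate 1 or WT heat shock replicate 1 the change was 0.16 and did not pass. RPS26P3 had 355 and 321 CPM in KO recovery, 178 and 79.8 in KO heat shock, 181 and 146 in WT recovery, and 185 and 363 in WT heat shock. Its log2 change was 1.498 ± 0.22 in KO recovery (adjusted p = 3.0e-05) and by -0.67 ± 0.22 in WT recovery (adjusted p = 0.016), a call lost at -0.02 without WT recovery replicate 2 or WT heat shock replicate 2. RPS20P2 had 40.03 and 33.0 CPM in KO recovery, 9.89 and 4.51 in KO heat shock, 24.3 and 20.1 in WT recovery, and 21.5 and 37.4 in WT heat shock, with a KO change of 2.41 ± 0.20 and a WT change of -0.37 ± 0.19 (adjusted p = 0.12). That WT value was -0.92 without the first WT pair and 0.19 without the second. WT heat shock replicate 2 stood above replicate 1 in 11 of the 15 most abundant members, and the median ratio over the 17 members with at least 1000 counts was 1.55, against 0.938 for the KO recovery, 0.819 for the KO heat shock and 0.831 for the WT recovery pair.

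A further set fell in KO recovery, some of them with their highest level in KO heat shock. RPL9P9 (ENSG00000237550; chr15:82372196-82372912, GRCh38, minus strand), a transcribed processed pseudogene, had 2.49 and 2.28 CPM in KO recovery, 16.4 and 22.8 in KO heat shock, 2.50 and 0.715 in WT recovery, and 1.38 and 4.36 in WT heat shock. Both KO heat shock libraries lay above all 6 others. It fell by 3.04 on the log2 scale (SE 0.29, adjusted p = 3.1e-07), while RPL9, with 223 and 182 CPM in KO recovery and 49.2 and 51.1 CPM in KO heat shock, rose by 2.00. RPL6P27 had 1.73 and 1.56 CPM in KO recovery, 5.93 and 7.004 in KO heat shock, 2.81 and 3.16 in WT recovery, and 1.54 and 2.77 in WT heat shock (-1.98 ± 0.22 in KO recovery). EEF1A1P11 had 0.578 and 0.494 CPM in KO recovery, 3.54 and 6.01 in KO heat shock, 5.74 and 6.02 in WT recovery, and 0.922 and 0.616 in WT heat shock. It was high in KO heat shock and in WT recovery, and changed by -3.16 ± 0.29 in KO recovery (adjusted p = 1.5e-07) and by 2.93 ± 0.29 in WT recovery (adjusted p = 3.0e-07).

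EEF1A1P14, RPS2P7, RPL12P33 and RPS15P5 were also higher in KO heat shock and WT recovery than in the other groups. Their mean CPM in KO heat shock and WT recovery was lower than that of EEF1A1P11. RPS2P7, RPL12P33 and RPS15P5, unlike EEF1A1P11, had their highest mean CPM in KO heat shock. RPL12P33 and RPS15P5 reached the minimum only with that group. RPS2P7 had 0.400 and 0.683 CPM in KO recovery, 4.51 and 3.29 in KO heat shock, 3.97 and 2.74 in WT recovery, and 0.666 and 1.13 in WT heat shock. RPL12P33 had 2 and 6 counts in KO recovery, 30 and 41 in KO heat shock, 11 and 14 in WT recovery, and 0 and 6 in WT heat shock. RPL21P116 had 0 counts in both KO recovery libraries and 25 and 14 in KO heat shock, so its fold has no finite value and is not given. In all, 7 of the 17 EEF1A1 copies were lower in KO recovery and 0 higher (median -0.75), against 5 lower and 7 higher of the 28 small-subunit copies and 7 lower and 9 higher of the 47 large-subunit copies. All tested genes were higher in 20.3% and lower in 20.8% of cases. The small-subunit shares (25.0% higher, 17.9% lower) and large-subunit shares (19.1% higher, 14.9% lower) lay near or under these. In the KO heat shock libraries the summed level of 15 listed RNAs that lack a poly-A tail was 67.2 and 57.3 CPM of unscaled totals, against 25.99 to 34.1 CPM in the 6 other libraries; its part in these changes was not tested.

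The recovery responses of the lines differed for most copies. As the difference of the log2 changes (KO minus WT), 10 members were higher and 52 lower (edgeR's quasi-likelihood test of the interaction), against 27.9% of all tested genes higher and 27.0% lower, and the median was -2.59. A minimum reached through WT recovery favours a negative difference. Of the 33 members with under 40 counts outside WT recovery, 1 was higher and 18 lower (median -3.33). Of the other 59, 9 were higher and 34 lower (median -2.09). For EEF1A1P6 the difference was -6.67 ± 0.36 (adjusted p = 1.5e-10), for EEF1A1P9 -4.71 ± 0.29 and for RPL3P4 -5.18 ± 0.45. It was positive for RPL18AP3 (2.82 ± 0.27, adjusted p = 1.3e-07), RPS20P2 (2.79 ± 0.28) and RPS26P3 (2.17 ± 0.31). By direction in each line, 43 members passed as higher in WT recovery without passing in KO recovery, 15 were lower in KO and higher in WT recovery, 8 were higher in both and 10 passed in neither. RPS26P3 was the 1 member that was higher in KO and lower in WT recovery, and 0 members were lower in both. The remaining members passed in 1 line alone: 7 higher and 4 lower in KO, and 4 lower in WT.

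**Figure D3:**
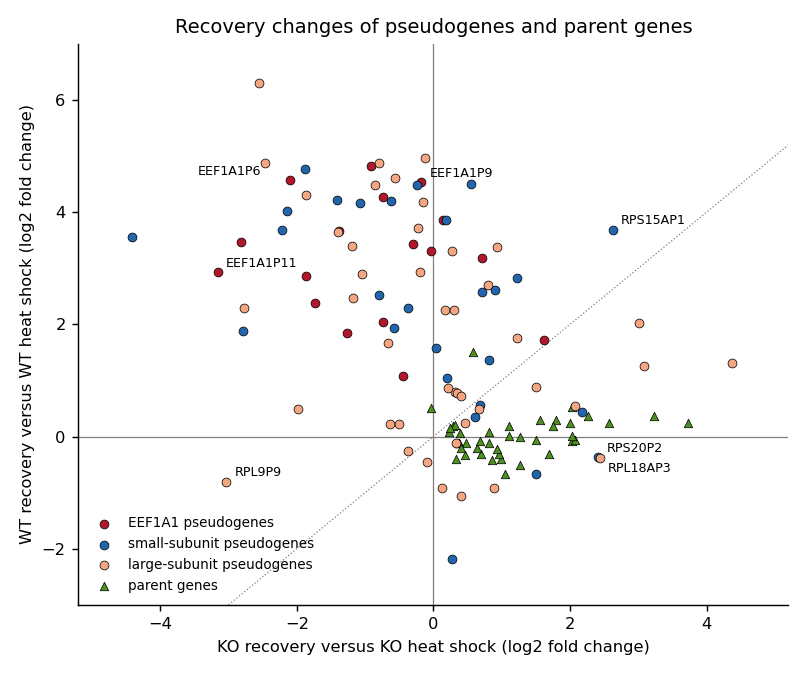
Log2 change in recovery against heat shock for KO cells (horizontal) and WT cells (vertical), with 88 pseudogenes as circles, 41 parent genes as green triangles, and a dotted line where both changes are equal. Pseudogenes lie mostly above the line (median 2.50 in WT and -0.17 in KO recovery), and the parents' medians are 0.96 in KO and -0.01 in WT recovery, with EEF1A1 at a WT change of 1.51. RPL21P116 and, singled out after their values were seen, RPS10P2, RPL31P2 and RPL13AP2 had a group at 0 in both libraries and are not drawn.

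At recovery, most of these copies had a lower level (CPM) in KO cells than in WT cells. Of 92 members 5 were higher and 69 lower in KO than in WT recovery (edgeR's quasi-likelihood test), against 30.9% of all tested genes higher and 29.9% lower, with a median of -3.13, or -3.11 with members at 0 set to the bound of 3 counts per group. Among the 59 members with at least 40 counts outside WT recovery, 5 were higher and 41 lower (median -1.93, or -1.77 with the bound). All 17 EEF1A1 copies were lower, with a median of -3.77, led by EEF1A1P9 at -5.44 ± 0.16 (adjusted p = 9.8e-12). Of the small-subunit copies 2 were higher and 23 lower, and of the large-subunit copies 3 were higher and 29 lower. RPL3P4 was lower by -5.50 ± 0.21 and RPL13AP5 by -4.37 ± 0.17. Those higher in KO recovery were RPL39P5 (1.58 ± 0.23), RPS26P3 (1.05 ± 0.30), RPL23AP7 (1.04 ± 0.25), RPS20P2 (0.72 ± 0.26) and RPL26P30 (0.61 ± 0.12). RPS20P2 did not pass under scaling by total counts (0.54) or by upper quartiles (0.56), nor without either WT recovery replicate or KO recovery replicate 1, and RPS26P3 did not pass without WT recovery replicate 2 (0.89) or KO recovery replicate 1 (0.97). RPL13P12 and RPL10AP6 did not pass (-0.50 ± 0.27 and -0.27 ± 0.26). This comparison and those of recovery with heat shock share the recovery libraries, so their values are not independent.

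At heat shock the lines differed in fewer members and in both directions. Of 92 members 16 were higher and 24 lower in KO than in WT heat shock (edgeR's quasi-likelihood test), against 26.9% of all tested genes higher and 28.0% lower, with a median of -0.24. The members' shares, 17.4% and 26.1%, were thus under those of all genes. A minimum reached through KO heat shock favours a higher level in KO. Of the 12 members with under 40 counts outside KO heat shock, 3 were higher and 0 lower. Of the other 80, 13 were higher and 24 lower (median -0.33). Of the 17 members with at least 1000 counts 2 were higher and 11 lower (median -0.74). RPL18AP3 was lower by -2.28 ± 0.25 (adjusted p = 3.1e-06), RPS20P2 by -2.07 ± 0.28 and RPL10AP6 by -1.79 ± 0.28. RPL9P9 (2.77 ± 0.33, adjusted p = 7.9e-06), EEF1A1P11 (2.65 ± 0.31) and RPS2P7 (2.10 ± 0.31) were higher. Without KO heat shock replicate 2 the count of lower members was 14.

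The group with the highest level was counted over the copies. WT recovery had the highest mean CPM in 75 of 92 members, KO heat shock in 7, KO recovery in 5 and WT heat shock in 5. The share over all tested genes was not computed for this measure. The 33 members with under 40 counts outside WT recovery are included, and the minimum favours WT recovery for them. RPS26P3, RPL18AP3, RPS20P2 and RPL39P5 were among those highest in KO recovery, RPL26P30, RPL9P9 and RPL6P27 among those in KO heat shock, and RPL10P3 and RPL23AP7 among those in WT heat shock. In 65 members both WT recovery libraries lay above the 6 other libraries, a pattern shown by 21.5% of all tested genes. Among the 59 members that reached 40 counts outside WT recovery the pattern held for 38. This held for 16 of the 17 EEF1A1 copies. In 6 members, RPL26P30, RPL9P9, RPL6P27, RPL12P33, RPS15P5 and RPL21P116, both KO heat shock libraries lay above the 6 others, a pattern shown by 17.7% of all tested genes. RPL12P33, RPS15P5 and RPL21P116 had 39, 14 and 5 counts outside KO heat shock, so they reached the minimum only with the group in which they were high.

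The parent genes moved differently. Of the 41 parents 39 were higher and 0 lower in KO recovery (median 0.96), and 5 were higher and 9 lower in WT recovery (median -0.01). The parents took 2.94% and 2.84% of counts in KO recovery, 1.78% and 1.75% in KO heat shock, 3.38% and 3.32% in WT recovery, and 2.84% and 3.04% in WT heat shock. In KO recovery 18 members fell while their parent rose, and 16 rose with it. In WT recovery 20 members rose with their parent, 15 rose while it fell and 31 rose while it did not pass. EEF1A1 copies made up 16 of these 20, and 7 of the 18 that fell in KO recovery while their parent rose. All copies of 1 parent are set against the same parent change, so the tallies do not count separate agreements. The median difference of log2 changes, member minus parent, was -1.27 in KO recovery and 2.02 in WT recovery. For the abundant RPS26P3 (1.498 in KO and -0.67 in WT recovery) the changes of RPS26 were 1.75 and 0.19.

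Copies were also taken as a share of their family's counts, member copies divided by copies plus parent, and the highest group differed between families. The share depends on the parent too: of the 41 parents 36 were lower and 1 higher in KO than in WT heat shock. The RPS3A share was highest in KO heat shock. Yet its copies, singled out after their values were seen, had more CPM per kilobase in WT recovery (RPS3AP47 1.95 against 0.492, RPS3AP5 1.10 against 0.132). For EEF1A1 the copies made up 0.650% and 0.488% in KO recovery, 1.70% and 2.28% in KO heat shock, 3.70% and 3.95% in WT recovery, and 1.17% and 0.646% in WT heat shock. For RPL3 the share was 0.0345% and 0.0368% in KO recovery, 0.108% and 0.0994% in KO heat shock, 1.47% and 1.63% in WT recovery, and 0.0646% and 0.0444% in WT heat shock. For RPL9 it was 1.26% and 1.36% in KO recovery, 25.3% and 31.3% in KO heat shock, 1.35% and 0.715% in WT recovery, and 1.30% and 2.26% in WT heat shock. Of the 41 families 29 had the highest mean share in WT recovery, 10 in KO heat shock, 2 in KO recovery and 0 in WT heat shock. Members that reached the minimum only with WT recovery or KO heat shock are included, and for them the minimum favours those groups. Families such as RPL31, RPL5 and RPL7 had no member with 200 counts. RPS10, highest in WT recovery here, was highest in KO heat shock with that minimum (5.01%, against 3.23% in WT recovery). In the RPS26 family the copies held more reads than the parent, with shares between 88.9% and 96.0% in all 8 libraries.

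**Figure D4:**
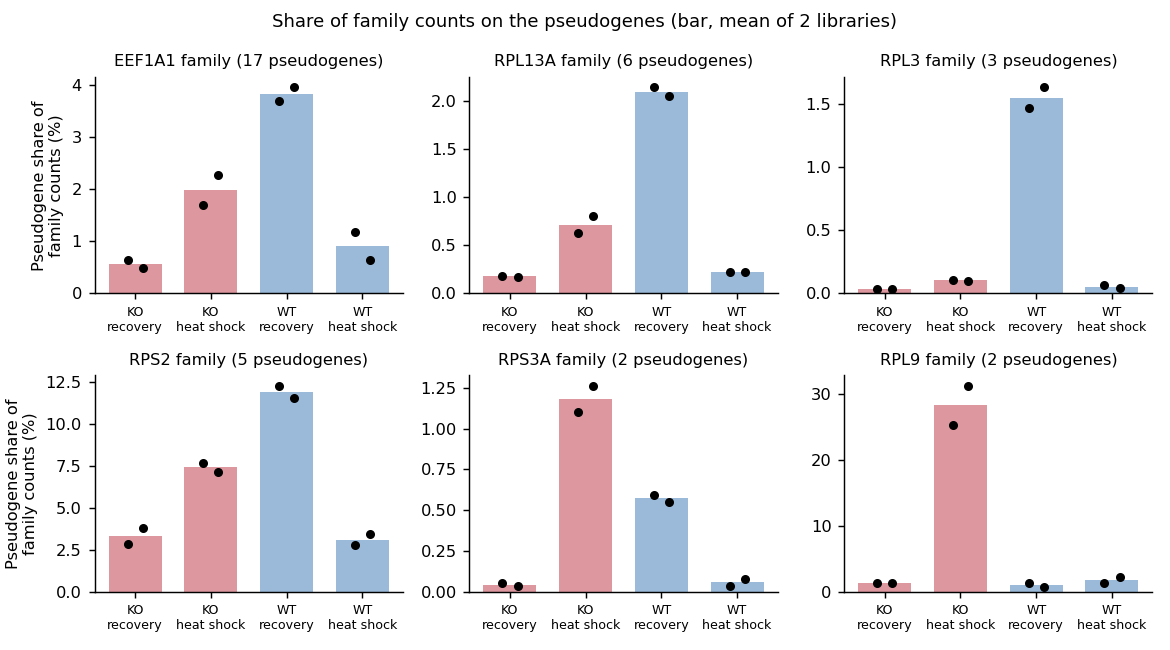
Reads of pseudogene members as a percentage of member plus parent reads for 6 families (vertical axes from 0). Points are libraries and bars the means of 2, red for KO and blue for WT. EEF1A1 reached 3.70% and 3.95% in WT recovery, and RPL9 reached 25.3% and 31.3% in KO heat shock.

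Other genes of the pathway were read from lists chosen with earlier results of these data known. Of 79 cytosolic ribosomal protein genes 74 were higher and 1 lower in KO recovery (median 1.05), and 10 higher and 22 lower in WT recovery (median -0.06). Of 8 elongation factor genes 6 were higher and 0 lower in KO recovery, and 2 higher and 3 lower in WT recovery. Of 24 tested pseudogenes of other translation genes 16 were higher and 1 lower in WT recovery (median 3.53), and 2 were higher and 2 lower in KO recovery. These passed the same minimum on summed counts, and of the 15 with at least 40 counts outside WT recovery 8 were higher and 1 lower there (median 1.42). Of 78 tested processed pseudogenes of genes outside translation 49 were higher and 1 lower in WT recovery (median 1.55), and 8 were higher and 18 lower in KO recovery. Of the 52 with at least 40 counts outside WT recovery, 28 were higher and 1 lower there (median 0.86).

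The changes were set against how much sequence each copy shares with its parent. Across the 91 copies the percentage of 50-base windows shared correlated with the change at a Spearman rho of -0.01 in KO recovery and 0.12 in WT recovery, and the percentage of windows found in no other transcript at 0.24 with the WT change. These are descriptions, since copies of 1 parent share sequence. Of the 15 members that shared at least 50% of windows, 5 were higher and 4 lower in KO recovery, and 10 higher and 1 lower in WT recovery (median 2.25). Of the 64 members that shared some windows but under 50%, 8 were higher and 14 lower in KO recovery, and 51 higher and 2 lower in WT recovery (median 2.91). Of the 12 members that shared none, 2 were higher and 1 lower in KO recovery, and 4 higher and 2 lower in WT recovery (median 0.42). The last group includes RPS19P3, RPL32P29 and RPL26P30, and 5 of the 91 members had at least 50% of windows in a gene other than the parent: RPL32P29, RPS20P21, RPL23AP7 and, singled out after their values were seen, RPL9P25 and RPL23AP1. RPL32P29 and RPS20P21, with all windows in other genes, lie within RPS29 and TMEM70, and their reads cannot be told apart from those genes here.

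**Figure D5:**
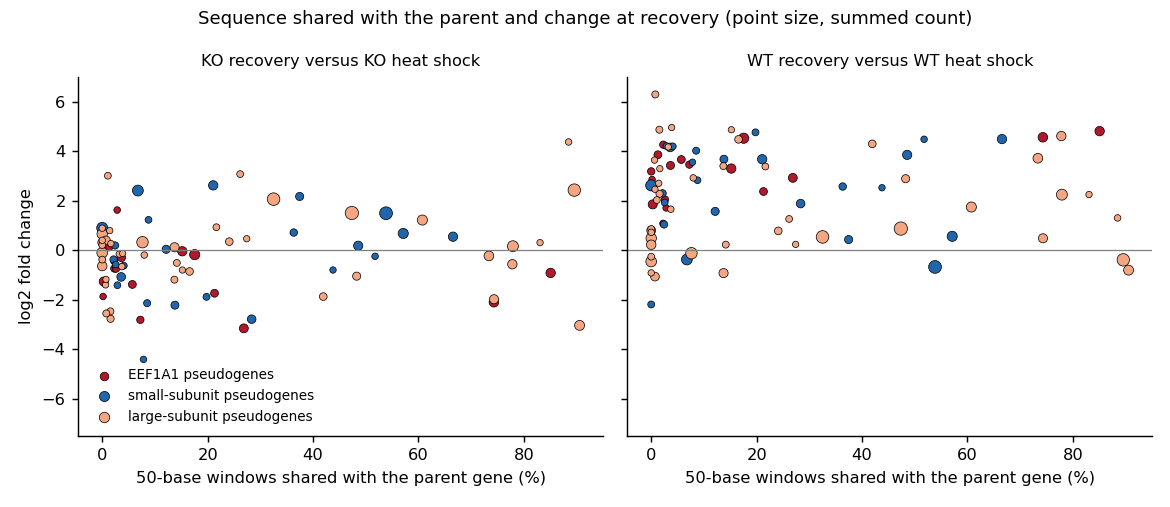
Log2 change in recovery against heat shock (vertical) against the percentage of a member's 50-base windows that also occur in its parent (horizontal), for KO cells (left) and WT cells (right). Colours mark the parent family, point size grows with the summed count, and 87 members are drawn, without those with a group at 0. The changes in WT recovery lie mostly above 0 over the whole range of shared windows, with a Spearman rho of 0.12 over 91 members, and those in KO recovery lie on both sides of 0, with a rho of -0.01.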

How the data were processed

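Per the file headers, the authors deposited 4 tables, 1 per replicate and line, with raw read counts per Ensembl gene for 2 libraries, a log2 fold change and p-values and q-values. Per the labels' protocols, strand was kept (dUTP), RNA was either poly-A selected or depleted of ribosomal RNA, and single reads had 50 bases. The sources used here do not give which RNA went into which library. CASAVA, TopHat and hg19 are named in the submitters' processing notes. The sources used here do not give the counting program or whether it used strand, so near-identical, overlapping and antisense genes cannot be told apart. Missing counts were read as 0. The deposited log2 fold changes and p-values were used only to check the columns.

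Genes with a summed count of at least 40 (17776, all 92 members among them) were tested with the quasi-likelihood test of edgeR 4.0.16 in R 4.3.3 with TMM scaling and Benjamini-Hochberg adjustment over all genes, at a threshold of 0.05. Recovery was compared with heat shock within pairs (line and replicate as block, 2 residual degrees of freedom), following the series' own pairing of matched libraries. KO was compared with WT on group means (4 residual degrees of freedom). Deviations of same-numbered libraries were uncorrelated (r = -0.0143 in KO and -0.0233 in WT). Replicate libraries correlated at r = 0.989 to 0.993 across genes, with counts further apart than sampling noise (chi-square per degree of freedom of 2.57 to 20.6), so none was counted as a repeat. CPM were computed here with TMM-scaled totals. The procedure was tested on simulated data.

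Copies were aligned to parent transcripts of GENCODE v29 (GRCh38) with Biopython 1.88 (match 2, mismatch -3, gap -5 to open and -2 to extend). The members and gene lists were chosen with earlier results of these data known. Members were named from the 8 lowest p per direction in each comparison and the 15 of highest CPM, together with all EEF1A1 copies; others are marked where they were singled out. Alternatives were DESeq2 1.42.0, other scalings, filters and blocks, a minimum of 200 counts, and leaving out each library. Counts carry no molecular identifiers, so floors of 3 counts cover counting error only. Results for 1 parent gene are not reported here.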

Additional observations from a re-analysis of the deposited data

Results flagged for a closer look

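The 16 members listed here had the 8 lowest p in each direction by edgeR's quasi-likelihood test of the interaction. That their recovery response differed between the lines thus follows from the choice. Of all 92 members, 10 were higher and 52 lower in that test, against 27.9% of all tested genes higher and 27.0% lower. The difference of log2 changes (KO minus WT) was negative for the copies that were high in WT recovery: -6.67 for EEF1A1P6, -6.08 for EEF1A1P11, -5.73 for EEF1A1P5, -5.18 for RPL3P4, -4.71 for EEF1A1P9, -3.95 for RPL13AP5, -3.34 for EEF1A1P12 and -2.09 for RPL15P3.

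The difference was positive for others: 2.82 for RPL18AP3, 2.79 for RPS20P2, 2.17 for RPS26P3, 1.74 for RPS26P31, 1.53 for RPL10AP6, 1.46 for RPL23AP7, 1.05 for RPL39P5 and 0.45 for RPL10P3. Those of RPS26P31 (1.19) and RPL39P5 (0.71) did not pass without the second WT pair, and that of RPL10P3 did not pass under scaling by total counts (0.19). For RPL18AP3, RPS20P2, RPS26P3 and RPL10AP6 the WT heat shock replicates lay far apart, with the second above the first. The summed level of RNAs without a poly-A tail was highest in the KO heat shock libraries, and its part in these differences was not tested.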

How the results depend on the processing

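Results were recomputed under 15 alternatives and with a minimum of 200 counts for members. With DESeq2, 9 members were higher and 9 lower in KO recovery, 2 were lower in WT recovery, 4 were higher in the difference of the responses and 3 were higher in KO than in WT recovery. Without a filter on low counts 8 were lower in WT recovery. With the minimum of 200 counts (40 members), 12 were lower in KO recovery, 28 higher in WT recovery, 24 lower in the difference, 29 lower in KO than in WT recovery, and 8 higher and 15 lower in KO than in WT heat shock. The members' share in KO recovery was 0.160% when mitochondrial and ribosomal RNA were left out of the totals. Leaving out 1 library at a time gave 11 to 16 higher and 13 to 19 lower in KO recovery, 58 to 69 higher and 2 to 8 lower in WT recovery, 7 to 11 higher and 45 to 50 lower in the difference, 3 to 6 higher and 65 to 71 lower in KO than in WT recovery, and 12 to 18 higher and 14 to 24 lower in KO than in WT heat shock. The 5 lower in WT recovery were 2 without WT recovery replicate 2 or WT heat shock replicate 2 and 8 without KO recovery replicate 1. The 5 higher in KO than in WT recovery were 3 without KO recovery replicate 1 or WT recovery replicate 2. Shares with 1 library were 0.144% to 0.147% in KO recovery, 0.04996% to 0.0778% in KO heat shock, 0.202% to 0.237% in WT recovery and 0.0918% to 0.169% in WT heat shock. Without the replicate block 14 members were higher and 20 lower in KO recovery, 67 and 4 in WT recovery, and 9 and 52 in the difference. With the replicate block added, 6 were higher and 70 lower in KO than in WT recovery, and 16 and 25 in KO than in WT heat shock. The WT change of RPL18AP3 (-0.39) reversed to 0.29 without WT recovery replicate 2 or WT heat shock replicate 2, and was -1.06 without WT recovery replicate 1. Over the named members, 2587 of 2738 recomputed values kept their direction and side of the threshold. The cause of these shifts was not tested. Scaling by total counts put the median of all genes at -0.14 in KO recovery and 0.14 in WT recovery, against -0.02 and 0.00 with TMM, and changed the split of all genes in KO recovery to 2529 higher and 5100 lower, against 3602 and 3695 with TMM. Copies with few reads, of which 33 reached 40 counts only with WT recovery, limit what these depths can show.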
